A study of Mus musculus with 16 samples.

Results

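Potassium channel genes were described here in the hippocampus of 16 mice. Members were the genes of the deposited count table whose name starts with Kcn followed by a lower-case letter and whose category includes protein coding, which gave 94 of the 55335 genes listed. Of these 94, 47 carried protein coding as their sole category, and 5 further Kcn-named genes had no protein coding transcript and were left out. A mean of at least 10 counts over the 16 mice was reached by 78 members, and 77 of the 78 passed the count filter used for testing. The exception was Kcne2, which is described but not tested. The other 16 members had mean counts of at most 6.88, and 2 of them, Kcnk16 and Kcnk18, had no count in any mouse.

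The mice were 10 months old at dissection and fell into 4 groups of 4. WT mice had the background strain C57BL/6J x 129S1. The 3xTg mice, a model of Alzheimer's disease, carry transgenes for mutant human APP and tau, which the Thy1.2 element drives in neurons. The study's methods describe the mice as female. Every mouse received an intracerebroventricular infusion for 28 days. WT-D and 3xTg-D mice received the vehicle, artificial cerebrospinal fluid with 0.8% DMSO. WT-S and 3xTg-S mice received CAY10566, an inhibitor of stearoyl-CoA desaturase, at 80 µM in the same vehicle. The sample titles and treatment labels name the Cayman inhibitor, while a protocol text common to all mice names another supplier's compound. No unoperated mouse was among the 16, so every value comes from a brain that carried a cannula.

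Potassium channels let potassium leave or enter cells along its gradient and so set the resting potential, repolarise the action potential and limit repetitive firing. Voltage-gated Kv channels open on depolarisation, calcium- and sodium-activated channels follow those ions inside the cell, inward rectifiers pass current near rest, and two-pore-domain channels leak at all voltages. Many pore-forming subunits work with partners: Kv beta subunits bind Kv1 channels, KChIPs bind Kv4 channels, and silent modifiers such as the Kcns and Kcnv products join Kv2 channels. In the hippocampus, Kv4 and Kv7 channels restrain pyramidal cells, Kv3 channels allow fast spiking of parvalbumin interneurons, and astrocytes take up potassium through Kcnj10, alone or with Kcnj16.

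Reads assigned to genes numbered 15413385 to 23590149 per mouse. Expression is given as CPM, read counts scaled to a common library size after TMM correction, or as RPKM, which divides CPM by the gene's exon length in kilobases and is used wherever levels of different genes are compared. Hippocampal markers were present in every mouse, with a mean log2 CPM of 5.72 to 6.34 for the CA1 list, 4.46 to 5.04 for CA3 and 5.14 to 5.96 for dentate granule cells. The libraries were uneven in 3 respects that touch the members. Uniquely mapped reads lying outside genes made up a share that ranged from 7.82% to 15.1%. WT-D mouse 4 and WT-S mouse 1 had choroid plexus markers at 3.98 and 2.79 mean log2 CPM, against at most 1.28 in the other 14 mice. The mouse 3xTg-D 2 had the lowest pan-neuronal score (9.41, against 9.66 to 9.79 in the others), the highest astrocyte score (8.21) and the highest microglia score (6.71). In bulk tissue, fewer cells of a type and less RNA per cell cannot be told apart.

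Levels of the 78 described members spanned 0.202 to 94.7 RPKM. Kcnab2, a Kv beta subunit that attaches to Kv1 channels in axons, was the highest, with a mean of 94.7 RPKM and a range of 82.6 to 122 over the 16 mice. It held 11.96% of the summed RPKM of the described members, and the 10 highest members together held 48.6%. Below it stood Kcnj3, the main GIRK subunit that opens on G protein signals, at 43.7 RPKM (range 37.9 to 47.7). Next came Kcnk1, a two-pore-domain channel, at 39.8 RPKM (34.1 to 46.1). The ranges of Kcnj3 and Kcnk1 overlapped, so their order is not resolved, whereas every mouse had more Kcnab2 than any mouse had Kcnj3. The ranges of the next members also overlapped with each other. These were Kcnk1, Kcnip2 at 38.4 RPKM, Kcnd2, the Kv4 subunit of dendritic A-type current, at 35.7 RPKM, and the astrocytic Kcnj10 at 35.3 RPKM.

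Levels were uneven within subfamilies. Kcna2, an axonal Kv1 subunit, led the Kv1 channels at 19.2 RPKM. Kcnq3, a Kv7 subunit of the M-current, had 16.3 RPKM, and Kcnc2, a Kv3 subunit, had 16.4 RPKM. Kcnma1, the pore of the BK channel, stood at 17.3 RPKM, and Kcnv1, a silent modifier, at 15.4 RPKM. Kcnn2 of the SK channels had 8.85 RPKM, Kcnh3 of the EAG-related channels 8.42 RPKM and the sodium-activated Kcnt2 7.32 RPKM. The Kcne beta subunits were low, with Kcne1l highest at 1.93 RPKM, and Kcnrg, a cytoplasmic regulator of Kv channels, had 0.290 RPKM. By share of the summed RPKM, Kv beta subunits held 15.8% ± 1.35 (SD, n = 16), KChIPs 10.3% ± 0.608 and the inward rectifiers other than GIRK 9.35% ± 0.872. Exons of several described members overlapped another gene by more than 10%, and their values are uncertain because the strand setting of the counting is not given in the sources used here. Among them were Kcna6, Kcnj3, Kcnj13, Kcnk2, Kcnk4 and Kcnmb4.

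**Figure D1:**
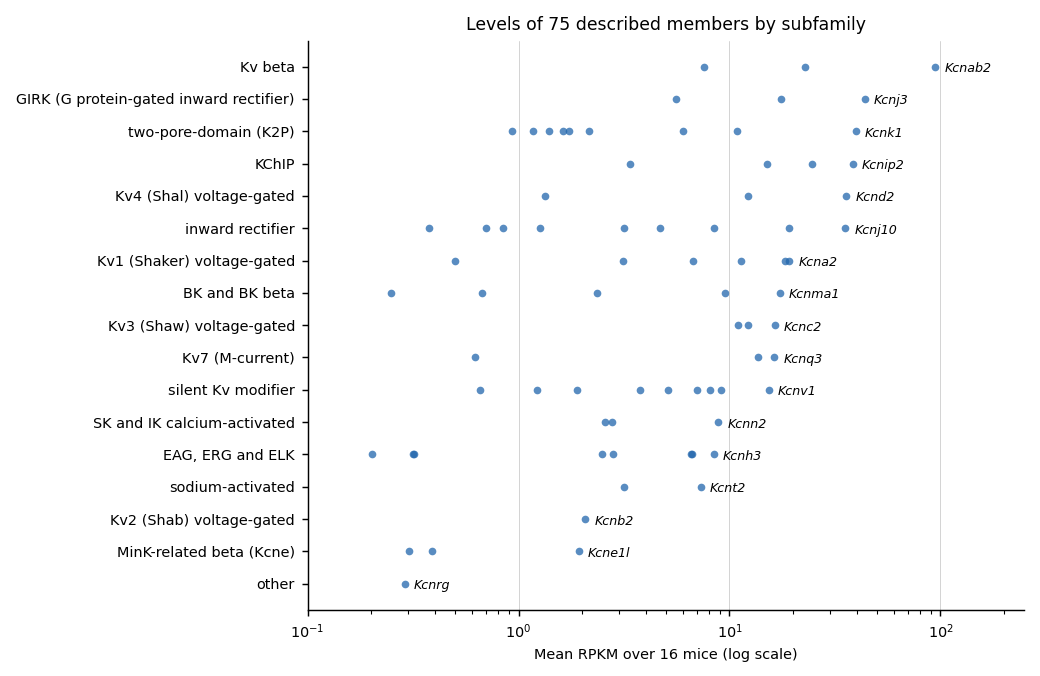
Mean RPKM over 16 mice of 75 of the 78 described members (points, log axis), one row per subfamily, with the highest member drawn named. Kcnab2 stands highest at 94.7 RPKM, and the Kcne subunits and Kcnrg stay below 2.

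The first comparison asked how 3xTg mice differed from WT mice under vehicle. Genes were tested with edgeR's quasi-likelihood test over 16475 genes and called where the p before adjustment did not exceed 0.01, the study's threshold for DEGs. Of the 77 members tested, 6 were lower and 1 was higher in the 3xTg-D group. Over all genes the same threshold called 2.47% lower and 2.44% higher. At an adjusted p of 0.05 or less (Benjamini-Hochberg over all tested genes) 2 members were called, Kcnj16 and Kcnip3, and 1.85% of all genes. The sign was negative for 57 of the 77 members (74.0%), against 50.01% of all tested genes, and the members' median log2 fold change was -0.07 against 0.00 for all genes. The count of negative members was 57 without 3xTg-D mouse 2, 50 without 3xTg-D mouse 3, and 51 with the share of reads outside genes as a covariate. The number of members called was 6 without 3xTg-D mouse 2, 6 without the mouse with high choroid plexus markers and 11 without 3xTg-D mouse 4, where 4.97%, 4.1% and 5.55% of all genes were called. Cell type markers differed between these groups too. Dentate granule scores were 5.52 to 5.96 in WT-D and 5.24 to 5.40 in 3xTg-D mice, with 2 of 6 genes called lower. Oligodendrocyte scores were 8.26 to 8.52 in WT-D and 8.53 to 8.74 in 3xTg-D mice, with 3 of 6 genes called higher. Neither range overlapped between the groups. The pan-neuronal list had 4 of 5 genes negative and 0 called, with a median log2 fold change of -0.06. The microglia and astrocyte lists each had 0 of 6 genes negative and 0 called. The part of any of these cells in the members' signs was not tested.

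Kcnip3 encodes KChIP3, a calcium-binding protein also known as DREAM, which binds Kv4 channels and acts on transcription in the nucleus. It had 53.4, 68.3, 53.7 and 64.5 CPM in the 4 WT-D mice and 44.4, 47.5, 42.3 and 42.7 CPM in the 4 3xTg-D mice. The groups did not overlap, and WT-D mice 1 and 3 lay below WT-D mice 2 and 4. The log2 fold change was -0.44 (SE 0.0869, adjusted p = 0.0329 by edgeR), a difference of -26.1%.

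Kcnj16 encodes Kir5.1, a subunit that is silent alone and joins Kcnj10 in a pH-sensitive channel of astrocytes. Its values were 35.7, 35.1, 38.2 and 31.97 CPM in WT-D mice and 26.8, 28.9, 28.2 and 27.6 CPM in 3xTg-D mice. Again the highest 3xTg-D value stayed below the lowest in WT-D, with a fold change of -0.34 on the log2 scale (SE 0.0631, adjusted p = 0.0252 by edgeR). Kcnj10, its partner, had 183 to 199 CPM in WT-D and 181 to 208 CPM in 3xTg-D mice, with a log2 fold change of -0.03 (SE 0.0593). The astrocyte marker list had the other sign, with 0 of its 6 genes negative, 0 called and a median log2 fold change of 0.19. Its scores overlapped, at 7.64 to 7.83 in WT-D and 7.67 to 8.21 in 3xTg-D mice, highest in 3xTg-D mouse 2.

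The region upstream of each of these genes is shown because both were lower in 3xTg mice under both treatments. The windows hold 250 bases before and 50 after the most upstream annotated start (RefSeq, GRCm38.p6), and that start is also the gene's start in the deposited table. RefSeq lists 3 starts for Kcnip3 and 4 for Kcnj16, and counts per gene do not say which start was used. The Kcnip3 window is chr2:127522045-127522344 on the minus strand and the Kcnj16 window chr11:110967783-110968082 on the plus strand. Capitals mark CpG dinucleotides, the sites of most DNA methylation in mammals.
Kcnip3: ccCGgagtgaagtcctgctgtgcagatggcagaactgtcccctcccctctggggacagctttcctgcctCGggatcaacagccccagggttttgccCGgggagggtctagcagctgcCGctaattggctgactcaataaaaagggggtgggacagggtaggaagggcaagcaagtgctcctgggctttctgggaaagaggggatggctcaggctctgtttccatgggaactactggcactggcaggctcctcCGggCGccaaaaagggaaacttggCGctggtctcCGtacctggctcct
Kcnj16: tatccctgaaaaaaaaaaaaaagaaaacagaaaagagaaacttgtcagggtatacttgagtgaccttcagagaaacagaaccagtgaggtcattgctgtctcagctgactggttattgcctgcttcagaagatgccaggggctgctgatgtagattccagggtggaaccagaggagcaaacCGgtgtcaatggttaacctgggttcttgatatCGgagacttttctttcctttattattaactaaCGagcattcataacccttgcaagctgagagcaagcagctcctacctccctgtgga
The windows held 8 and 3 CpG dinucleotides, with a GC content of 60.3% and 44.3%. RefSeq promoter windows were matched for 69 of the 94 members, with a median of 10 CpG against 7 over the 27025 genes with a window. At least 10 CpG were found in 50.7% of the members' windows and in 44.0% of all windows. The TATA box letters TATAAA, on either strand, were found in 3 members' windows (4.35%), those of Kcnj9, Kcnj13 and Kcnj15, and in 14.2% of all windows. The letters TGACGTCA, the full cyclic AMP response element, occurred in 0 of the members' windows and in 1.85% of all. Neither pattern was in the windows shown.

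The single member that was higher in 3xTg-D mice was Kcns1, a silent subunit that modifies Kv2 channels. It had 3.76, 3.55, 4.50 and 4.54 CPM in WT-D mice and 6.37, 7.30, 5.09 and 7.14 CPM in 3xTg-D mice, from 74 to 174 reads per mouse. The groups did not overlap, and the log2 fold change was 0.67 (SE 0.147, adjusted p = 0.0525 by edgeR).

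Kcnq3, a subunit of the M-current, had 266, 260, 259 and 239 CPM in WT-D mice. In 3xTg-D mice it had 203, 176, 229 and 216 CPM, lower than in all of WT-D, with mouse 2 lowest. The log2 fold change was -0.31 (SE 0.0773, adjusted p = 0.0868 by edgeR), and -0.25 (SE 0.0574) without that mouse. Kcnh7, an ERG channel, had 101, 124, 105 and 106 CPM in WT-D mice and 80.6, 71.7, 97.8 and 93.4 CPM in 3xTg-D mice. Its groups did not overlap, and the log2 fold change of -0.34 (SE 0.10004, adjusted p = 0.157 by edgeR) became -0.26 without 3xTg-D mouse 2. Kcnh7 was not called without that mouse, nor without WT-D mouse 2, WT-D mouse 3 or 3xTg-D mouse 1.

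All 4 KChIP genes had negative signs under vehicle, and 2 of them passed the test. Besides Kcnip3, Kcnip4, an auxiliary subunit of Kv4 channels, had 93.4, 99.8, 94.6 and 89.0 CPM in WT-D mice and 82.5, 77.7, 84.4 and 83.3 CPM in 3xTg-D mice. The groups did not overlap, although the log2 fold change was only -0.20 (SE 0.0518, adjusted p = 0.103 by edgeR), and it was not called without WT-D mouse 2. Kcnip2, the highest KChIP, had a log2 fold change of -0.06 (SE 0.0711), and Kcnip1 of -0.02 (SE 0.0871). None of the 3 Kv4 genes to which these proteins bind was called, and their log2 fold changes lay between -0.04 and 0.01. None of the 6 Kv1, 4 Kv3, 3 GIRK, 9 two-pore-domain, 3 SK, 2 sodium-activated or 5 BK genes tested was called under vehicle either. Their log2 fold changes lay between -0.30 and 0.16 for Kv1, -0.15 and 0.09 for Kv3 and -0.17 and -0.04 for GIRK genes.

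**Figure D2:**
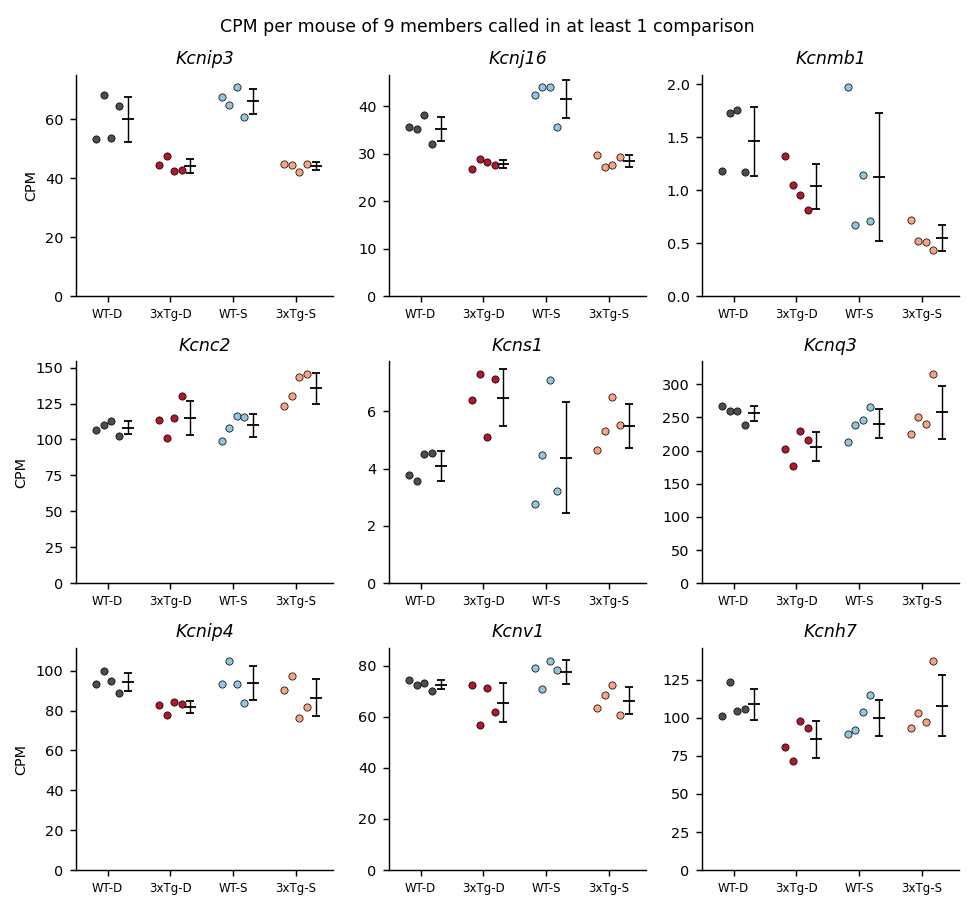
CPM of 9 members called in at least 1 comparison, one panel per gene and one point per mouse (mice 1 to 4 from left to right within each group), with the group mean ± SD (n = 4) to the right of the points. Kcnip3 and Kcnj16 lie lower in all 8 3xTg mice than in all 8 WT mice.

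The second genotype comparison used the 8 mice given CAY10566, none of which was in the vehicle comparison. Of the 77 members, 2 were lower and 1 was higher in 3xTg-S than in WT-S mice, against 2.47% lower and 1.79% higher among all genes. At the adjusted threshold 2 members were called, and 1.4% of all genes. The negative signs were 34 of 77, against 49.6% of all genes. The counts became 2 without the WT-S mouse with high choroid plexus markers and 7 without WT-S mouse 4, beside 3.22% and 5.75% of all genes.

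Kcnip3 and Kcnj16 were again the members that were lower. Kcnip3 had 67.7, 64.9, 70.9 and 60.9 CPM in WT-S mice and 44.9, 44.6, 42.1 and 45.0 CPM in 3xTg-S mice. The 3xTg-S values sat together, far from the WT-S mice, and the log2 fold change was -0.60 (SE 0.0725, adjusted p = 0.00193 by edgeR). Kcnj16 had 42.3, 43.9, 44.0 and 35.7 CPM in WT-S mice and 29.7, 27.2, 27.6 and 29.2 CPM in 3xTg-S mice. No values overlapped here either, and the log2 fold change was -0.56 (SE 0.0886, adjusted p = 0.0106 by edgeR). Kcnj10 had 168 to 232 CPM in WT-S and 164 to 202 CPM in 3xTg-S mice, with a log2 fold change of -0.24 (SE 0.110, adjusted p = 0.47 by edgeR). Of the 6 astrocyte markers 5 were negative in this comparison and 0 were called, with a median log2 fold change of -0.03.

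Kcnc2, the Kv3 subunit of fast-spiking interneurons, was the member that was higher. It had 99.2, 108, 116 and 116 CPM in WT-S mice and 123, 130, 143 and 146 CPM in 3xTg-S mice. The groups did not overlap, and the log2 fold change was 0.29 (SE 0.0808, adjusted p = 0.151 by edgeR). Kcnc2 was not called without WT-S mouse 1, which had high choroid plexus markers, WT-S mouse 2, 3xTg-S mouse 3 or 3xTg-S mouse 4. The other 3 Kv3 genes had positive signs and were not called. The GABAergic marker list had 5 of 6 genes negative and 0 called, with a median log2 fold change of -0.08.

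Kcns1, Kcnq3, Kcnh7 and Kcnip4, called under vehicle, were not called between 3xTg-S and WT-S mice. Their log2 fold changes there were 0.30 (SE 0.267), 0.09 (SE 0.110), 0.10 (SE 0.127) and -0.13 (SE 0.0985). The sign was the same in both genotype comparisons for 38 of the 77 members (49.4%), and for 52.6% of all tested genes. Both comparisons called 2 of the 77 members in the same direction, Kcnip3 and Kcnj16, beside 319 of the 16475 tested genes. All 8 EAG-related genes and all 3 Kv4 genes had positive signs under CAY10566, with 0 called.

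**Figure D3:**
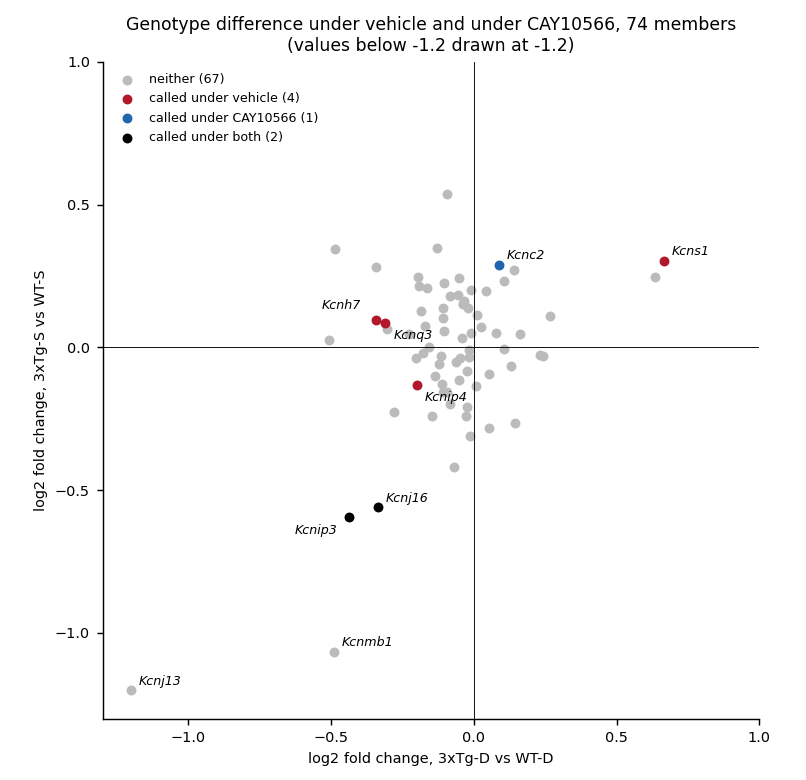
Log2 fold change of 3xTg against WT under vehicle (x axis) and under CAY10566 (y axis) for 74 of the 77 tested members, coloured by the comparison in which they were called. Kcnip3 and Kcnj16, called in both, lie at the lower left. The 4 drawn members called under vehicle only have smaller differences on the y axis than on the x axis, with Kcns1 at 0.30 and Kcnip4 still negative.

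The inhibitor's effect in 3xTg mice was examined by comparing 3xTg-S with 3xTg-D mice. Of the 77 members 1 was higher and 1 was lower, against 0.279% higher and 0.625% lower among all genes. No member and 0% of all genes reached the adjusted threshold, although 13 members, and 6.33% of all genes, were below 0.05 before adjustment in edgeR. DESeq2 called 2 members with median-ratio size factors and 1 with DEGES size factors at the same threshold, beside 1.01% of all genes with either. Without 3xTg-D mouse 1, 3xTg-D mouse 3, 3xTg-S mouse 3 or 3xTg-S mouse 4 edgeR called 0 members, without 3xTg-D mouse 2 it called 1, without 3xTg-S mouse 1 it called 4 and without 3xTg-D mouse 4 it called 5. Over all genes the last of these fits called 1.65%, and the others between 0.413% and 0.971%. The remaining fit, without 3xTg-S mouse 2, called 4.87% of all genes. All 6 oligodendrocyte, all 6 microglia, all 6 astrocyte and all 5 ependymal markers were negative in this comparison. Of these, 2 oligodendrocyte and 3 ependymal markers were called lower, and 0 of the microglia or astrocyte markers. The pan-neuronal list had 0 of 5 genes negative and 0 called, with a median log2 fold change of 0.08. The part of these cells in the members' signs was not tested. Positive signs were found for 57 members and negative signs for 20, with a median log2 fold change of 0.11. Over all genes 48.1% were negative, and their median was 0.01. The 3xTg-D mice are also part of the first comparison, in which 57 members were negative, so the direction counts of these 2 comparisons are not independent. Without 3xTg-D mouse 2 the positive signs numbered 61, and without 3xTg-S mouse 2, the mouse with the lowest share of reads outside genes, 52.

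Kcnmb1, the beta1 subunit that tunes BK channels in smooth muscle, was the member that was lower. It had 24, 25, 18 and 15 reads in 3xTg-D mice and 11, 11, 8 and 8 reads in 3xTg-S mice, or 0.818 to 1.32 CPM against 0.432 to 0.719 CPM. All 3xTg-S mice lay below all 3xTg-D mice, with a log2 fold change of -0.92 (SE 0.270, adjusted p = 0.722 by edgeR). The mural cell markers, which include the smooth muscle gene Acta2, had scores of 3.50 to 3.75 in 3xTg-D and 3.15 to 3.78 in 3xTg-S mice. Acta2 alone had 5.5, 9.27, 7.64 and 10.2 CPM in 3xTg-D and 5.23, 2.48, 4.95 and 7.45 CPM in 3xTg-S mice, with overlapping ranges. In this comparison 0 of the 6 mural markers were called, and their part in the difference was not tested.

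The same comparison in WT mice, WT-S against WT-D, called 0 members in either direction, against 0.0789% of all genes higher and 0.109% lower. At the adjusted threshold the share was 0% of all genes. Below 0.05 before adjustment there were 2 members by edgeR, Kcnj16 and Kcna5, beside 2.25% of all genes, and DESeq2 called 0. Kcnj16 had 31.97 to 38.2 CPM in WT-D and 35.7 to 44.0 CPM in WT-S mice, with 1 WT-S mouse within the WT-D range. Its log2 fold change was 0.24 (SE 0.0854, adjusted p = 0.9996 by edgeR). In this comparison mice with the same replicate number deviated together, though the labels do not say what the number marks. With the replicate number as a block Kcnj16 was called, with a log2 fold change of 0.23 (adjusted p = 0.920 by edgeR). This was 1 of 77 members, where the block called 0.698% of all genes. Kcna5, a Kv1 subunit of smooth muscle and heart, had a log2 fold change of -0.46 (SE 0.180) at a mean of 1.43 CPM over the 16 mice. Without WT-S mouse 4, which had the highest share of reads outside genes in its group, 4 members were called, Kcnj16, Kcnk9, Kcnt1 and Kcnb2, and without WT-D mouse 3 the single member called was Kcnmb2. Calls over all genes were 3.13% and 0.273% in these fits.

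Treated 3xTg mice were also set against vehicle WT mice. This comparison shares its WT-D mice with the first genotype comparison and its 3xTg-S mice with the second. It called 2 members higher and 3 lower, against 2.26% and 3.43% of all genes, and 3 members at the adjusted threshold, against 1.58% of all genes. Kcnip3 (log2 fold change -0.46, SE 0.0857) and Kcnj16 (-0.33, SE 0.0691) were lower, with adjusted p-values of 0.0268 and 0.0471 by edgeR. Kcnc2 (0.31, SE 0.0664, adjusted p = 0.0516 by edgeR) was higher. Without 3xTg-S mouse 2 the count was 8, and 9.38% of all genes were called.

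Kcnmb1 had the greatest fold change among the members called in this comparison. Its CPM values were 1.18, 1.73, 1.75 and 1.17 in WT-D mice, from 23 to 36 reads, and 0.719, 0.525, 0.514 and 0.432 in 3xTg-S mice. The log2 fold change was -1.43 (SE 0.265, adjusted p = 0.0258 by edgeR), or -62.9%. The WT-S mice were spread from 0.674 to 1.97 CPM, over the whole WT-D range and the upper end of the 3xTg-S range. The difference between 3xTg-S and WT-S mice, a log2 fold change of -1.07, did not pass the test (adjusted p = 0.324 by edgeR). Mural marker scores were 3.59 to 3.81 in WT-D mice, so that the 3xTg-S mice lay partly below and partly within that range. Acta2 had 5.21 to 10.5 CPM in WT-D, 3.01 to 10.0 CPM in WT-S and 2.48 to 7.45 CPM in 3xTg-S mice. Ependymal marker scores were 0.647 to 1.03 in 3xTg-S and 1.68 to 2.07 in WT-D mice, and their part in the Kcnmb1 values was not tested.

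Kcnq3, called between the genotypes under vehicle, had 225 to 316 CPM in 3xTg-S and 239 to 266 CPM in WT-D mice, with a log2 fold change of -0.01 (SE 0.0971).

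Whether the inhibitor acted differently by genotype was tested as an interaction over all 16 mice. It called 0 members in either direction, against 0.303% of all genes with a positive and 0.291% with a negative interaction. At the adjusted threshold the share was 0%. Below 0.05 before adjustment edgeR had 6 members, beside 4.98% of all genes, among them Kcnq3, Kcnb2, Kcnh7, Kcna2 and Kcnma1. All 6 had positive interactions, between 0.33 and 0.46 on the log2 scale. The smallest p was that of Kcnq3, with an interaction of 0.41 (SE 0.142, adjusted p = 0.788 by edgeR), and DESeq2 called this gene alone. Without WT-S mouse 4 edgeR called 4 members, without 3xTg-D mouse 4 it called 2, and without WT-D mouse 4, 3xTg-D mouse 3, 3xTg-S mouse 1 or 3xTg-S mouse 2 it called 1. Over all genes the first 2 of these fits called 2.31% and 1.34%, and the others between 0.486% and 2.96%. The interactions of Kcnip3 (-0.14, SE 0.112) and Kcnj16 (-0.21, SE 0.102) were negative and not called.

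Averaged over both treatments, 3xTg mice had 5 members lower and 2 higher than WT mice. Over all genes 4.04% were lower and 3.9% higher. The members lower were Kcnip3, Kcnj16, Kcnip4, Kcnv1 and Kcnmb1 (log2 fold change -0.77). Those higher were Kcns1 (0.49) and Kcnc2 (0.20). At the adjusted threshold 2 members were called, Kcnip3 and Kcnj16, against 4.97% of all genes. Kcnip3 had a log2 fold change of -0.51 (SE 0.0559, adjusted p = 1.5e-05 by edgeR) and Kcnj16 of -0.44 (SE 0.0513, adjusted p = 2.84e-05 by edgeR). Leaving out any one mouse gave -0.54 to -0.48 for Kcnip3 and -0.49 to -0.42 for Kcnj16. Kcnv1, a silent modifier of Kv2 channels that was called in no pairwise comparison, had 70.1 to 74.3 CPM in WT-D and 56.6 to 72.5 CPM in 3xTg-D mice. Under CAY10566 it had 70.9 to 81.9 CPM in WT-S and 60.6 to 72.6 CPM in 3xTg-S mice. The groups overlapped under both treatments, and the averaged log2 fold change was -0.19 (SE 0.0556, adjusted p = 0.0664 by edgeR). The count of called members fell from 7 to 4 without 3xTg-S mouse 4, and the share of all genes from 7.93% to 7.19%.

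Members known from cells other than neurons were followed apart. Kcnj8, the Kir6.1 subunit of pericytes, had 1.14 to 2.64 CPM over the 16 mice and was called in no comparison. Kcnk13, the THIK-1 channel of microglia, had 3.85 to 6.43 CPM and Kcnk6, another two-pore-domain channel, 2.25 to 7.43 CPM, and neither was called. Kcnk6 was highest in WT-D mouse 1 and 3xTg-D mouse 2, the mice with the highest microglia scores (6.31 and 6.71). Kcnk13 had 6.08 and 5.62 CPM in these mice and was highest in WT-D mouse 4. Kcne1l had 6.63 CPM in 3xTg-D mouse 2 and 1.52 to 4.03 CPM in the other 15 mice, with 2.66 CPM in WT-D mouse 1. The part of microglia in these values was not tested.

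Kcne2 and Kcnj13 are known from the choroid plexus epithelium, which secretes cerebrospinal fluid. Kcne2 had 128 reads (6.54 CPM) in WT-D mouse 4 and 67 reads (3.15 CPM) in WT-S mouse 1, and between 0 and 6 reads in each of the other 14 mice. Kcnj13 had 106 and 84 reads in the same mice and 0 to 30 in the others. These are the mice with high choroid plexus markers. No 3xTg mouse had such marker levels, and the log2 fold change of Kcnj13 under vehicle was -2.61 (SE 1.00, adjusted p = 0.308 by edgeR). About 49.1% of the exon bases of Kcnj13 overlap Gigyf2 on the other strand, so part of its reads may belong to that gene.

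**Figure D4:**
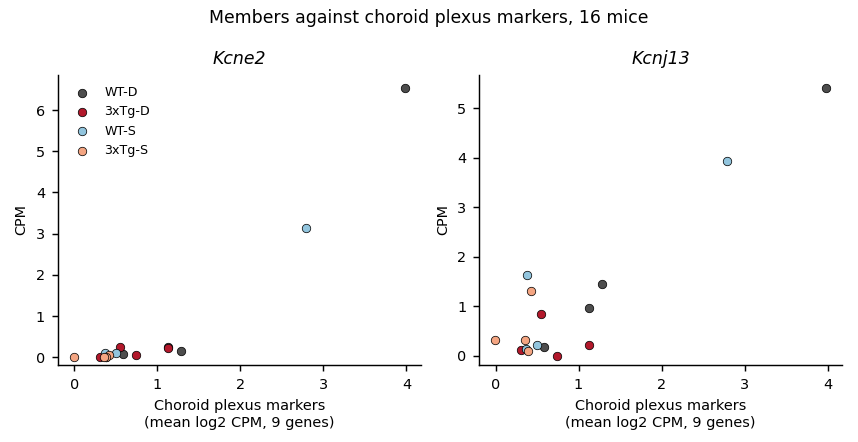
CPM of Kcne2 and Kcnj13 in each of the 16 mice against the mean log2 CPM of 9 choroid plexus markers. WT-D mouse 4 and WT-S mouse 1 stand apart at the upper right in both panels, at 3.98 and 2.79 on the marker axis.

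Several neuronal members varied within groups along with the share of reads outside genes. Kcnk9, the TASK-3 leak channel, had 47.9 CPM in 3xTg-S mouse 2, where that share was 7.82%, and 130 CPM in 3xTg-S mouse 4, where it was 15.1%. In WT-S mice it had 39.2 CPM at a share of 8.55% and 106 CPM at 13.1%. The lowest and the highest mouse differed more within these groups than the group means did. Kcnt1, a sodium-activated channel, had 21.2 and 42.5 CPM in the same pair of 3xTg-S mice, and 19.5 and 42.8 CPM in the same pair of WT-S mice. Kcng3, a silent modifier with the largest spread within groups after Kcne2 and Kcnj13, had 0.811 and 3.67 CPM in that pair of 3xTg-S mice.

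None of these 3 genes was called in any of the 7 comparisons. Differences of that kind are given as description, since all points share the library from which both axes were computed. With the share as a covariate, the members called were 5 under vehicle, 4 under CAY10566 and 1 between 3xTg-S and 3xTg-D mice, beside 4.54%, 5.98% and 1.1% of all genes, and Kcnh7 was not called under vehicle. The log2 fold change of Kcnh7 was then -0.33.

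**Figure D5:**
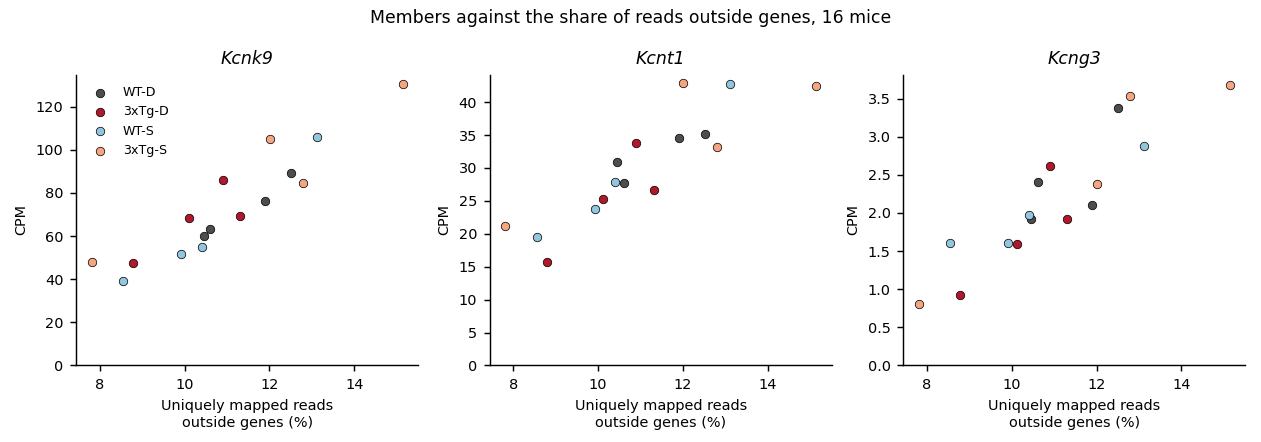
CPM of Kcnk9, Kcnt1 and Kcng3 in each mouse against the share of its uniquely mapped reads lying outside genes (%). Kcnk9 runs from 39.2 CPM in a WT-S mouse at 8.55% to 130 CPM in a 3xTg-S mouse at 15.1%, with mice of all 4 groups along the way.

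Proteins that bind or cluster potassium channels but are not named Kcn were taken from a list of 39 genes, of which 37 were tested. Under vehicle 1 was lower in 3xTg mice and 0 were higher, against the 2.47% and 2.44% of all genes given above. This was Cntnap2, which gathers Kv1 channels beside the node of Ranvier. It had 182, 178, 174 and 171 CPM in WT-D mice and 136, 104, 137 and 145 CPM in 3xTg-D mice. The groups did not overlap, and the log2 fold change was -0.43 (SE 0.0898, adjusted p = 0.0398 by edgeR), while 0 of the 6 Kv1 genes were called. Under CAY10566, Cntnap2 was not called (-0.14, SE 0.0742), and Cntn2, its partner at the axon, was the single gene of the list that was higher (0.32, SE 0.0930, adjusted p = 0.166 by edgeR). The shares of all genes there were 1.79% higher and 2.47% lower. Between 3xTg-S and 3xTg-D mice 1 gene of the list, Lgi4, was lower, beside 0.625% of all genes. Between WT-S and WT-D mice 0 were called, beside 0.0789% of all genes higher and 0.109% lower. Between 3xTg-S and WT-D mice Cntnap1 and Dpp10 were higher and Cntnap2 (-0.20, SE 0.0561, adjusted p = 0.122 by edgeR), Lgi3 and Lgi4 were lower. These were 2 and 3 of the 37 genes, against 2.26% and 3.43% of all genes. Averaged over treatments, Cntnap1 and Dpp10, an auxiliary subunit of Kv4 channels, were higher and Cntnap2 was lower. That made 2 and 1 of the 37 genes, against 3.9% higher and 4.04% lower among all genes.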

How the data were processed

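Whole hippocampi of 16 mice, 4 per group, were sequenced in bulk. After trimming (Trimmomatic 0.35) and alignment to GRCm38 (STAR 2.5.1b, Gencode M23), the authors deposited raw counts for each gene, not normalized. The strand setting and any use of molecular identifiers in the counting are not given in the sources used here. Groups and replicate numbers came from the sample titles. Nothing in the labels says more about the mice of a group than that they are separate samples.

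The 4 alignment summary lines of the table were kept out of library sizes and tests. They held all reads that were unmapped, mapped several times, outside genes or ambiguous, and the share outside genes is given per mouse as a percentage of uniquely mapped reads. Counts were tested in R 4.3.3 with edgeR 4.0.16 (filterByExpr with a minimum count of 10 and a minimum total of 15, TMM, glmQLFit and glmQLFTest, two-sided), which left 16475 of the 33942 genes with a count. Pairs of groups were fitted on their own 8 mice, and the interaction and the averaged genotype difference on all 16. Calls took a p before adjustment of at most 0.01, and calls at a Benjamini-Hochberg adjusted p of at most 0.05 were counted beside them. CPM used TMM-scaled library sizes, log2 CPM a prior count of 2, and RPKM the union of exons in Gencode M21, found for all 94 members. Replicates of a group differed by a chi-square per degree of freedom of 3.91 to 47.4, so none was a copy.

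The members, the gene lists and the tests were chosen with earlier results of these data known. Genes named are those called in any of the 7 comparisons, the highest of each subfamily, 7 members known from other cells, and the 3 with the largest spread within groups. Other members and the partner genes given with values (Kcnip1, Kcnk9, Kcnt1, Kcnb2, Kcna5, Cntnap2 and Cntn2 among them) were chosen after their values were seen. Values of 3 members that the rule names, and 1 allele of the 3xTg line, are not reported here, while counts over members include all members. Alternatives were median-ratio size factors in edgeR, leaving the low-count filter out, one fit of all mice, the replicate block, the share of reads outside genes as covariate, DESeq2 1.42.0 with median-ratio or DEGES size factors (3 iterations), the adjusted threshold, each mouse left out, and both mice with high choroid plexus markers left out, the last chosen after the data were seen.

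Same-numbered mice of WT-S and WT-D deviated together (correlations across genes of 0.114 to 0.340, mean 0.217). The pairing was taken from the replicate numbers in the labels, which do not say what they mark. In the other comparisons not all pairs were above 0.1. Their means were 0.241 for 3xTg-S vs WT-S, 0.213 for 3xTg-S vs 3xTg-D, 0.176 for 3xTg-S vs WT-D and 0.041 for 3xTg-D vs WT-D. The fits were checked on simulated counts. Promoter windows came from RefSeq (GRCm38.p6).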

Additional observations from a re-analysis of the deposited data

Results flagged for a closer look

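In 112 groups of 4 mice, formed by 28 named members and the 4 groups, 11 held a mouse whose gap to the nearest other mouse was a larger part of the group's range than Dixon's 95% critical value for 4 samples allows. Chance flags about 1 in 20 groups of this size. In 3xTg-D mice, mouse 2 was the one apart for Kcnj3 (197 CPM, the others at least 221), Kcnj10 (208 CPM, the others at most 186) and Kcnk6 (6.67 CPM, the others at most 3.63). In 3xTg-S mice, Kcnip3 was lowest in mouse 3 (42.1 CPM, the others at least 44.6), Kcna2 highest in mouse 4 (297 CPM, the others at most 237), Kcnn2 highest in mouse 3 (73.3 CPM, the others at most 63.0) and Kcnh3 lowest in mouse 1 (45.6 CPM, the others at least 52.7). Kcnk6 was highest in WT-S mouse 1 (3.52 CPM, the others at most 3.07). Kcne2 was highest in WT-D mouse 4 (6.54 CPM, the others at most 0.240) and WT-S mouse 1 (3.15 CPM, the others at most 0.104), and in 3xTg-S mouse 1 a single read gave 0.0654 CPM while the others had 0.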

How the results depend on the processing

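With each mouse left out in turn, counts ranged from 5 to 11 for 3xTg-D vs WT-D and 2 to 7 for 3xTg-S vs WT-S. Over all genes these fits called 3.95% to 5.55% and 3.13% to 6.03%. Ranges were 0 to 5 for 3xTg-S vs 3xTg-D, 0 to 4 for WT-S vs WT-D and 4 to 8 for 3xTg-S vs WT-D. Shares of all genes there were 0.413% to 4.87%, 0.134% to 3.13% and 4.03% to 9.38%. The interaction ran from 0 to 4 members and the averaged genotype difference from 4 to 9. Shares of all genes there were 0.34% to 2.96% and 6.88% to 8.25%. With the replicate block the counts were 11 for 3xTg-S vs WT-S, 16 for 3xTg-S vs 3xTg-D, 1 for WT-S vs WT-D, 8 for the interaction and 11 for the averaged difference, where 8.13%, 6.88%, 0.698%, 3.79% and 10.5% of all genes were called. Kcnh7 was not called under vehicle with the block. In all comparisons the labels give same-numbered mice only a number in common. Outside WT-S vs WT-D the correlation of same-numbered mice ranged from -0.10 to 0.50. In none of the 5 pairwise comparisons did every mouse correlate best with its own number.

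With all 16 mice in one fit the counts were 3, 5 and 1 for 3xTg-D vs WT-D, 3xTg-S vs WT-S and WT-S vs WT-D. That fit called 4.23%, 5.86% and 0.291% of all genes. Without the filter the member counts were 5 for 3xTg-S vs WT-S, 5 for 3xTg-S vs 3xTg-D and 3 for the interaction. Over all genes the shares without the filter were 3.17%, 1.05% and 0.613%. With the outside-gene covariate or DESeq2 with DEGES size factors 1 member was called for 3xTg-S vs 3xTg-D, beside 1.1% and 1.01% of all genes. DESeq2 with median-ratio or DEGES size factors gave 1 for the interaction, beside 0.692% and 0.704% of all genes. At the adjusted threshold the counts were 2, 0, 3 and 2 for 3xTg-D vs WT-D, 3xTg-S vs 3xTg-D, 3xTg-S vs WT-D and the averaged difference. The cause of these shifts was not tested. The 9 called members given by name, each followed in the comparison of its smallest p, kept their sign under the alternatives run for them. The counts that follow take the unadjusted threshold and leave out the adjusted one, which only Kcnip3, Kcnj16 and Kcnmb1 of these 9 pass, and the fit without both mice with high choroid plexus markers. Kcnip3, Kcnj16 and Kcnv1, averaged over treatments, stayed past the threshold in all 22 alternatives, and Kcnc2 and Kcnmb1 (3xTg-S vs WT-D) and Kcnq3 (3xTg-D vs WT-D) in all 15. Kcnh7 did so in 8, Kcnip4 in 13 and Kcns1 in 14 of 15.

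With 4 mice a group, members with few reads, such as Kcnmb1, allow only coarse values.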
